A study of Mus musculus with 99 samples.

Results

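The broad RING1B loci are the RING1B peaks of at least 3000 bp in RING1B WT cells treated with OHT. They were chosen by their length in that 1 peak list, and 405 of its 3941 peaks passed, which is 10.3% of the peaks and 28.7% of their bases (1.84 of 6.42 Mb). The other peaks were split into 2561 loci of 800 to 2999 bp and 975 loci under 800 bp, which serve below only as a comparison. All cells were mouse ESCs that carry ROSA26::creERT2, grown in 2i/LIF on gelatin, and all but the Eed fl/fl line described below lack RING1A and have floxed RING1B alleles. In the Parental line, OHT (4-hydroxytamoxifen, 0.5 µM) activates the Cre recombinase in every cell that holds it and deletes RING1B, and cells given ethanol (−OHT) were the controls. Clones of this line stably express FLAG-HA-tagged RING1B WT or RING1B I53S, a form without ubiquitin ligase activity, so that only the transgene is left after OHT. MTF2 KO derivatives of all 3 lines were each a clone, and Eed fl/fl ESCs, a separate line with neither of these RING1 alleles in which OHT deletes Eed, were treated in the same way. ChIP-seq for 12 antibodies (69 libraries in a group) and RNA-seq (16 libraries, 2 per group) were analysed. The sample descriptions give 72 h for every OHT treatment, whereas the titles and the study's methods give 48 h for some MTF2 and JARID2 libraries, and the latter times are used.

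PRC1 and PRC2 are the Polycomb complexes that keep developmental genes silent in ESCs, mostly at promoters in CpG islands. RING1B is the ligase of PRC1 and places one ubiquitin on histone H2A (H2AK119ub1), and PRC2, with its scaffold SUZ12, trimethylates histone H3 at lysine 27 (H3K27me3). Canonical PRC1 holds PCGF2 and a CBX protein such as CBX7 that reads H3K27me3, whereas variant PRC1 holds RYBP and other PCGF proteins such as PCGF6. PRC2.1 is marked by MTF2 and EPOP, and PRC2.2 by JARID2 and AEBP2.

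Windows of 200 bp were read from mm10 at 6 broad loci, 5′ to 3′ on the strand of the gene, with each CpG in capitals, since the loci are described below by their CpG content. The first 3 are the bases just before an annotated start site of genes whose RNA is described below. Ebf3 has the widest locus, and its window at chr7:137314446-137314645 (minus strand) holds 36 CpG in 80% GC and overlaps no annotated gene (GENCODE M21). The Ccnd2 window at chr6:127151061-127151260 (minus strand) lies before a start site inside the span of Ccnd2 and within that of 9330179D12Rik, in no exon, and holds 3 CpG, where the whole locus of 3561 bp holds 159. The Pax9 window at chr12:56691567-56691766 (plus strand) lies within the span of Gm15524, in no exon, and holds 17 CpG. The other three are the middles of their loci. The Gata3 window at chr2:9878015-9878214 (minus strand) is in no exon but within the spans of Gata3 and Gm13256, and stands for a locus whose gene rose. The Neurod2 window at chr11:98328018-98328217 (minus strand) is entirely coding sequence and belongs to the broad locus with the highest RING1B score. The Fasn window at chr11:120818680-120818879 (minus strand) has 142 coding bases and only 3 CpG, and shows the CpG-poor sequence of the few broad loci without H3K27me3.
Ebf3: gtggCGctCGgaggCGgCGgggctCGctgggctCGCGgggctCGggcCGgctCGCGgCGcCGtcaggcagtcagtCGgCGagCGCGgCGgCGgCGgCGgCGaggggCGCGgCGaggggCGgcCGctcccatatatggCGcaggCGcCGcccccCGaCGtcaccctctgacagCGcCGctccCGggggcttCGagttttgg
Ccnd2: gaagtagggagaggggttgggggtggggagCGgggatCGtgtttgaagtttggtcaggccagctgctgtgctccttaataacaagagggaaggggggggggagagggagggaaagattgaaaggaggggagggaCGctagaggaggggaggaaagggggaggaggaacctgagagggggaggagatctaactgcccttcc
Pax9: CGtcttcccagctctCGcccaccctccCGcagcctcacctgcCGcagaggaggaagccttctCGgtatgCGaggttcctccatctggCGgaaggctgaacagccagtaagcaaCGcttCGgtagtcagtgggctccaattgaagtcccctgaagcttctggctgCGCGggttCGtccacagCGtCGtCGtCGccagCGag
Gata3: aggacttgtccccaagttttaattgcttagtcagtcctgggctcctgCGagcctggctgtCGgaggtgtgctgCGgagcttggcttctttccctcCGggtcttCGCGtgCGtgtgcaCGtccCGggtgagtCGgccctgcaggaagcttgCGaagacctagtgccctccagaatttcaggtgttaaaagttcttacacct
Neurod2: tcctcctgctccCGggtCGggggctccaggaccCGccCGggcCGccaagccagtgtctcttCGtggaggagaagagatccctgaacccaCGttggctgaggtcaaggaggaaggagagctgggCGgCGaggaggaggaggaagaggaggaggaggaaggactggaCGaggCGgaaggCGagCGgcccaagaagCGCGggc
Fasn: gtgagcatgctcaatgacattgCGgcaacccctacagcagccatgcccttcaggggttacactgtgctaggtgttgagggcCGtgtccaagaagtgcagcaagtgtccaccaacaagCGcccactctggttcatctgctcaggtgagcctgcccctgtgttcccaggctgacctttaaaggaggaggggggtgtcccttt

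Each ChIP-seq file is a list of peaks of 1 library with a score, the −log10 p-value of MACS2, of at least 10. Such a list holds neither reads nor spike-in scaling, so depth and signal per locus are unknown. A locus was taken as occupied if any peak shared 1 bp or more with it. Only MTF2 and JARID2 at 72 h of OHT in RING1B WT and RING1B I53S had 2 libraries per condition. Where a condition had 1 library there is no replicate check, and the 95% intervals (Wilson, and those of differences) cover the sampling of loci only and take loci as independent, which neighbouring loci are not. Peaks on chromosome 11 made up an unusual share of some lists: 82.6% of the RING1B peaks of Parental +OHT and 66.8% of those of RING1B I53S +OHT lay there, against 12.5% in Parental −OHT. Of the broad loci, 16.8% were on this chromosome. RNA-seq libraries held 6957248 to 12743460 counted reads. The deletions were only in part visible in the counts, which are summed per gene name over all exons. Why the falls were partial was not tested. Eed went from 255 and 173 CPM (counts scaled to the library total) to 67.1 and 43.7 in Eed fl/fl cells, with a log2 fold change of −1.95 and an edgeR adjusted p of 0.0766. Rnf2, the gene of RING1B, went from 198 and 257 to 144 and 167 CPM in Parental cells. The pluripotency genes that define ESCs were present in all 12 libraries of the other lines, at a summed 7427 to 9361 CPM without OHT.

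The broad loci were 3000 to 14647 bp long, with a median of 3886 bp against 1267 bp for all RING1B loci. Their RING1B scores had a median of 101 (10.5 to 334), against 30.1 in loci of 800 to 2999 bp and 13.0 in loci under 800 bp. Just inside the length threshold were a locus on chromosome 10 without a gene (3000 bp, score 32.4), Fli1 (3000 bp, score 147) and Hoxc9 (3002 bp, score 53.9). Just outside were Sdk2 (2993 bp, score 227) and Zhx2 (2995 bp, score 38.6), so the scores on both sides of the threshold overlapped. At the other end, 108 loci reached 5000 bp. The widest were Ebf3 (14647 bp, chr7:137308812-137323458), Tbx2 (13749 bp, chr11:85828485-85842233), Otx1 (12440 bp, chr11:21992599-22005038), Tfap2a (11958 bp, chr13:40727722-40739679), Six3 (11731 bp, chr17:85612523-85624253) and the Hoxb5 and Hoxb6 region (11699 bp, chr11:96294289-96305987). Lhx2, Lhx1, Skor1, Cbx8 and Zfp503 were also among the widest. All of these but Cbx8, which encodes a CBX subunit of PRC1, are transcription factors or regulators of transcription that act in development. A promoter, taken as 2.5 kb on both sides of each start site in the annotation, overlapped 94.8% of the broad loci, against 84.7% and 76.3% of the other 2 length classes. The promoters belonged to 582 gene names, of which 371 were protein coding. The RING1B list of Parental −OHT, which the choice did not use, had a peak at 403 of the 405 loci and a peak of at least 3 kb at 385 of them. In that library 97.2% of the bases of the broad loci were covered.

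Peaks of PRC1 were lost from the broad loci to very different degrees depending on the subunit. CBX7 peaks overlapped 98.3% of them in RING1B WT +OHT and 3.95% (16 loci) in RING1B I53S +OHT. The difference was −94.3 points (interval −96.1 to −91.3), and the 2 lists held 2648 and 32 peaks in all. PCGF2, the other canonical subunit, was present at 98.3% and 62.2% (−36.0 points, −40.9 to −31.1). Peaks of PCGF6, of variant PRC1, overlapped 98.0% and 34.8% (−63.2 points, −67.8 to −58.1). RYBP peaks overlapped 36.8% and 21.5% (−15.3 points, −21.4 to −9.08), so RYBP was on most broad loci in neither line. At the RING1B loci under 3 kb the order of PCGF2 and PCGF6 was the other way, with −71.9 and −57.5 points. From ChIP-seq signal at its RING1B targets, the paper reports much smaller effects on PCGF6 and RYBP than on PCGF2 and CBX7. The shares here are another measure, from 1 library per antibody and line. H2AK119ub1 had a peak at 84.2% of the broad loci in RING1B I53S, against 99.3% in RING1B WT (−15.1 points, −19.0 to −11.5). With only peaks scored at least 20, these shares were 54.8% and 94.8%. From western blots and spike-in ChIP-seq, the paper describes H2AK119ub1 as fully absent once only the mutant ligase is left. Peak lists without that scaling cannot measure such a global change, so the shares do not show how much H2AK119ub1 remained. If peaks had to cover at least 50% of a locus, the difference became −31.9 points for H2AK119ub1, −73.6 for PCGF2 and −5.43 for RYBP. RING1B itself, whose WT list defined the loci, had a peak at 25.2% of them (102 loci, 21.2 to 29.6%) in RING1B I53S, and the longest RING1B peak at such a locus had a median of 1301 bp. On chromosome 11 that share was 41.2%, and elsewhere 22.0%, beside the unequal peak lists given above, whose part in the result was not tested.

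In Parental cells, which have no transgene, almost no PCGF2 peak was left after OHT. RING1B peaks went from 99.5% of the broad loci without OHT to 3.95% (16 loci) with OHT, a difference of −95.6 points (−97.1 to −92.9). PCGF2 went from 98.3% to 1.23% (5 loci). CBX7 went from 98.0% to 7.90% (32 loci), and PCGF6 from 83.5% to 33.3%. The CBX7 lists held 5140 peaks without and 59 with OHT, and those of PCGF2 5186 and 89. In RING1B I53S +OHT, by comparison, PCGF2 had been at 62.2%, CBX7 at 3.95% and PCGF6 at 34.8%, each from 1 library per line. The paper reports that PCGF2 protein is less stable once RING1B is lost and that RING1B WT and I53S restore it alike. The part of protein level in these shares was not tested. H2AK119ub1 was recorded at 98.3% without and 92.6% with OHT (−5.68 points, −8.78 to −2.86). That a peak remained says only that the caller reported enrichment somewhere in the locus.

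**Figure D1:**
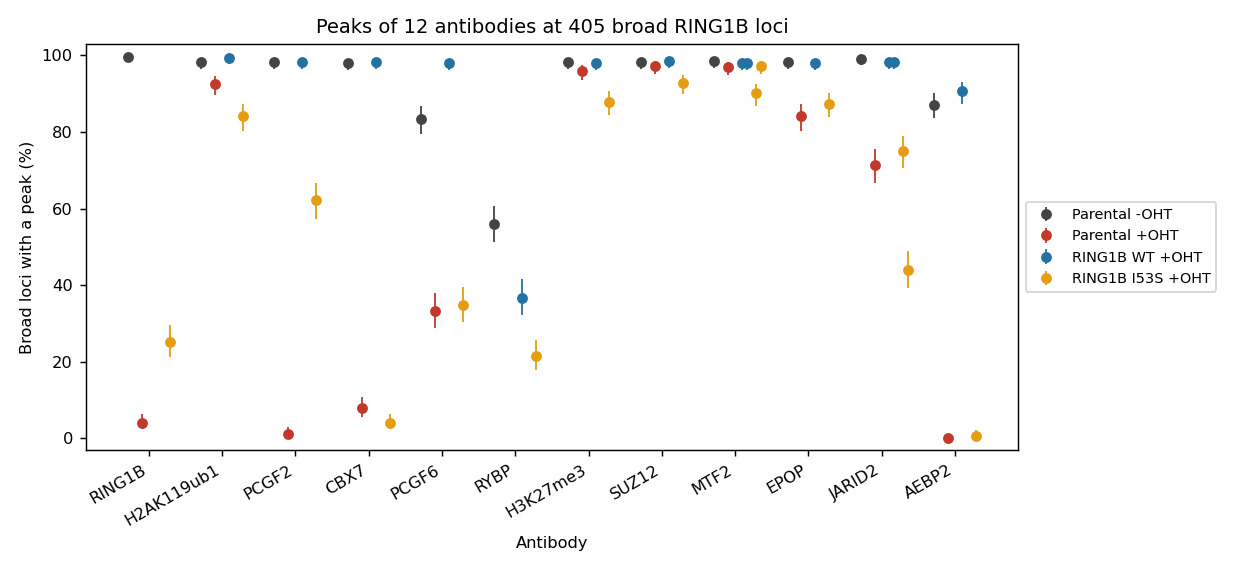
Share of the 405 broad loci with a peak (y axis, percent) for each of 12 antibodies (x axis) in Parental −OHT, Parental +OHT, RING1B WT +OHT and RING1B I53S +OHT; each point is a library at 72 h and bars are 95% Wilson intervals over loci. CBX7 and AEBP2 lie under 8% in both lines without catalytic activity, whereas H3K27me3, SUZ12 and MTF2 stay above 87%.

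Peaks of SUZ12 and H3K27me3 stayed at most broad loci in RING1B I53S +OHT, and PRC2.2 subunits lost more peaks than PRC2.1 subunits. From ChIP-seq signal, with a spike-in for H3K27me3, the paper describes a strong displacement of SUZ12 and reduced H3K27me3. Shares of loci with a peak do not measure such a fall in signal. SUZ12 peaks overlapped 98.5% of them in RING1B WT +OHT and 92.8% in RING1B I53S +OHT (−5.68 points, −8.72 to −2.95), and H3K27me3 peaks 98.0% and 87.9% (−10.1 points, −13.8 to −6.73). For PRC2.1, EPOP went from 98.0% to 87.4% (−10.6 points, −14.3 to −7.18). For PRC2.2, AEBP2 went from 90.6% to 0.741% (3 loci), a difference of −89.9 points (−92.4 to −86.3). Its lists held 1475 peaks in RING1B WT and 50 in RING1B I53S, and the quality of the libraries was not tested. MTF2 and JARID2 had 2 libraries per line. MTF2 peaks were at 98.0% and 98.0% of the broad loci in the RING1B WT libraries and at 90.1% and 97.3% in those of RING1B I53S. JARID2 peaks were at 98.3% and 98.3% in RING1B WT and at 75.1% and 44.0% in RING1B I53S. For both antibodies the 2 lines did not overlap, with mean differences of −4.32 points for MTF2 and −38.8 points for JARID2. The exact permutation test, two-sided, gave p = 0.333 for each, the smallest that 2 against 2 libraries allow. If peaks had to cover at least 50% of a locus, the difference became −30.1 points for SUZ12, −32.3 for H3K27me3, −36.8 for EPOP, −21.0 for MTF2 and −77.8 for JARID2. The RING1B I53S libraries themselves differed from each other, with an SD of 5.06 points for MTF2 and 22.0 points for JARID2.

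In Parental cells AEBP2, JARID2 and EPOP again had the largest differences and SUZ12 and MTF2 the smallest. SUZ12 peaks overlapped 98.3% of the broad loci without and 97.3% with OHT (−0.988 points, −3.25 to 1.17), and H3K27me3 98.3% and 96.0% (−2.22 points, −4.75 to 0.121). The intervals of both differences include 0. MTF2 went from 98.5% to 97.0%, EPOP from 98.3% to 84.2%, and JARID2 from 99.0% to 71.4%. AEBP2, which had peaks at 87.2% of the broad loci without OHT, had none with OHT (0 of 405, which allows a share of up to 0.940%). That bound covers the sampling of loci only, and this 1 list held 14 peaks in all, against 1331 without OHT. With at least 50% of a locus covered, the differences in Parental cells became −14.8 points for H3K27me3, −8.40 for SUZ12, −5.68 for MTF2, −39.5 for EPOP and −61.2 for JARID2. At 48 h of OHT, JARID2 peaks were at 98.3% of the broad loci in RING1B WT, 94.6% in Parental and 79.3% in RING1B I53S cells, and MTF2 peaks at 98.0% in each. From ChIP-seq signal, the paper describes JARID2 as fully displaced at 48 h, which these shares do not measure. Without OHT the RING1B I53S line was like the others, with MTF2 at 98.0% and JARID2 at 98.3%. With active RING1B, AEBP2 peaks were also unevenly spread over the RING1B loci, since in RING1B WT +OHT they overlapped 24.9% of those under 3 kb against 90.6% of the broad ones.

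In MTF2 KO cells far fewer broad loci had PRC2 peaks where RING1B was inactive or deleted. With active RING1B the loss of MTF2 took H3K27me3 peaks from 98.0% (RING1B WT) to 74.6% (RING1B WT MTF2 KO, −23.5 points, −28.0 to −19.0) and SUZ12 peaks from 98.5% to 97.0%. In RING1B I53S MTF2 KO, 13.6% of the broad loci had H3K27me3 and 8.40% had SUZ12, which is −61.0 points (−66.0 to −55.2) and −88.6 points (−91.3 to −84.9) from RING1B WT MTF2 KO. In Parental MTF2 KO, H3K27me3 went from 73.3% without OHT to 7.41% with OHT, and SUZ12 from 95.3% to 30.4% (−64.9 points, −69.5 to −59.7). Of the SUZ12 peaks of Parental MTF2 KO +OHT, 67.2% were on chromosome 11, where 72.1% of the broad loci had one, against 22.0% elsewhere. In RING1B I53S MTF2 KO those shares were 26.5% and 4.75%. Dropping peaks scored under 20, an alternative added after seeing the data, made the H3K27me3 difference between RING1B I53S MTF2 KO and RING1B WT MTF2 KO −19.3 points.

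The peaks that remained covered less of each broad locus, and those of SUZ12 and PCGF2 mostly its centre. The share of a locus under SUZ12 peaks had a median of 100% in RING1B WT +OHT and 64.5% in RING1B I53S +OHT, with 89.5% in Parental +OHT. For H3K27me3 the medians were 100%, 68.9% and 82.9%, and for H2AK119ub1 100%, 62.5% and 82.2%. PCGF2 covered a median of 22.2% in RING1B I53S. The 2 JARID2 libraries of that line differed, with medians of 34.6% and 0%. The longest SUZ12 peak at a locus shortened from a median of 5598 bp to 2390 bp, and the longest H3K27me3 peak from 8642 bp to 3788 bp. With each locus divided into 20 equal bins, SUZ12 peaks in RING1B I53S covered 27.9% of the loci in the first bin, 75.7% in the centre and 24.0% in the last bin, against 95.7%, 98.0% and 95.8% in RING1B WT. PCGF2 peaks had the same form in RING1B I53S at a lower level, with 5.33%, 39.3% and 6.01%. H3K27me3 peaks did not, since they covered 53.7%, 61.1% and 52.1%, which is nearly level. The centre of the locus was thus where SUZ12 and PCGF2 peaks were kept most often.

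**Figure D2:**
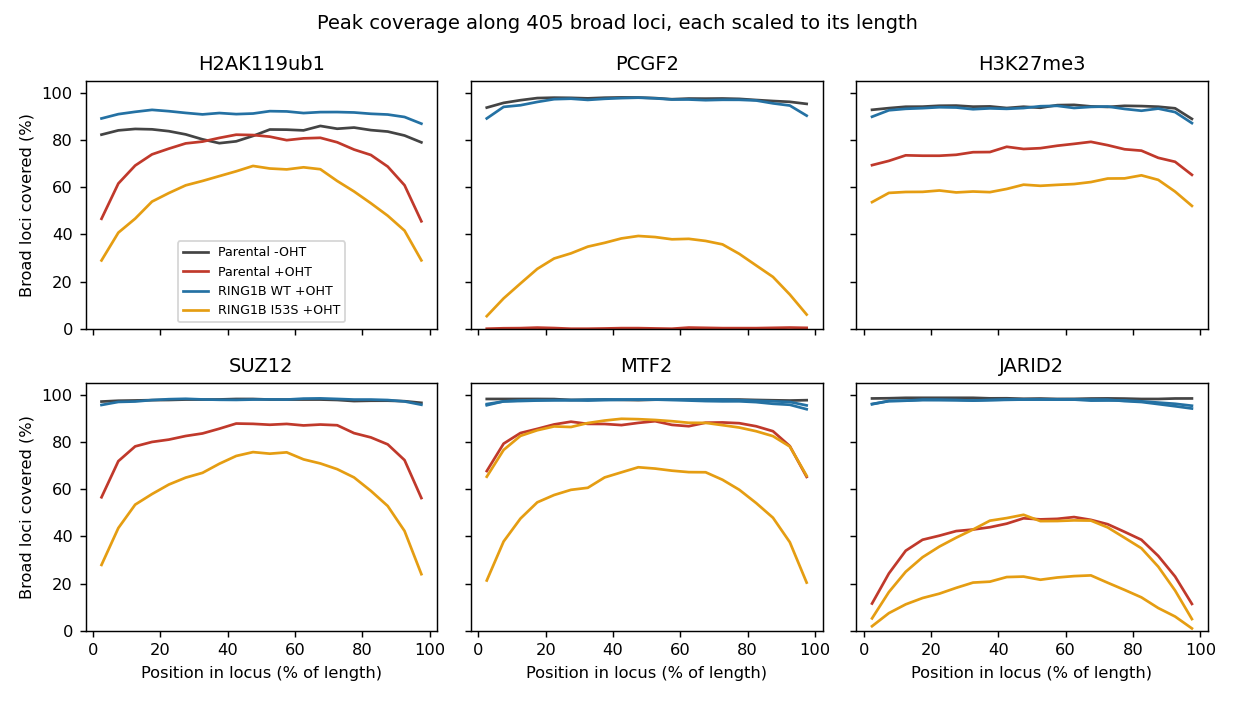
Share of the 405 broad loci covered by a peak (y axis, percent) along the locus (x axis, percent of its length, 20 bins) for 6 antibodies in Parental −OHT, Parental +OHT, RING1B WT +OHT and RING1B I53S +OHT, with 1 line per library. SUZ12 in RING1B I53S rises from 27.9% at the first edge to 75.7% at the centre, whereas H3K27me3 lies between 52.1% and 61.1% at these positions.

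In RING1B I53S +OHT the bases under SUZ12, MTF2 and JARID2 peaks were richer in CpG than the other bases of the same loci. Taken were the 337 broad loci with at least 200 bp both under and outside SUZ12 peaks in RING1B I53S. Pooled over these loci, the bases under peaks held 6.43 CpG per 100 bp and the others 3.75. The part under peaks had more CpG at 92.3% of the loci, and the values that follow are pooled in the same way. MTF2 gave 6.63 against 3.88 in the first library and 5.79 against 4.37 in the second, and JARID2 gave 7.26 against 4.15. PCGF2 gave 6.58 against 4.35. For RING1B I53S peaks the part under peaks was the richer one at 95 of 100 loci, with 8.38 against 4.71. H3K27me3 went the other way, with 5.06 under and 6.13 outside peaks, and only 40.8% of 299 loci had more CpG under peaks. SUZ12 in RING1B WT MTF2 KO also went the other way, since only 27.7% of 155 loci had more CpG under peaks. With active RING1B fewer loci were partly covered. In RING1B WT +OHT, H3K27me3 gave 5.57 against 8.09, with 24.3% of 115 loci higher under peaks. SUZ12 there gave 5.28 against 2.14, with more under peaks at 17 of 19 loci. MTF2 had more at 8 of 8 loci in 1 library and 11 of 22 in the other. Bases that lost a peak were thus not measured as such. The part of the position within the locus in these differences was not tested. The Ebf3 locus shows the range: RING1B I53S peaks covered 4.5% of it, PCGF2 20.3%, JARID2 19.9% (mean of 2 libraries), SUZ12 68.0% and H3K27me3 81.2%, while in RING1B WT +OHT each of the last 4 covered at least 99.3%.

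Broad loci had peaks of most antibodies more often than shorter loci in RING1B I53S cells, also when only the central 500 bp of each locus was read so that length gave no advantage. In RING1B I53S +OHT, SUZ12 peaks overlapped the centre of 83.2% of the broad loci, 59.1% of those of 800 to 2999 bp and 29.5% of those under 800 bp. PCGF2 peaks overlapped 46.9%, 10.1% and 0.923%, and JARID2 peaks 43.6%, 15.5% and 1.59% (means of 2 libraries). H2AK119ub1 gave 75.8% in broad loci and 40.1% in those of 800 to 2999 bp. PCGF6 did not follow this order, with 15.3%, 18.6% and 17.4%, and RYBP differed little, with 10.6%, 8.67% and 6.87%. In Parental +OHT, PCGF6 was at 12.6% of the broad centres and at 24.6% and 24.3% of the others. Without OHT, PCGF6 had been at 61.5%, 58.2% and 41.3% in Parental cells, so broad loci did not start lower. CBX7 and AEBP2 had almost no peaks in any class in RING1B I53S. In RING1B WT +OHT, where the loci were defined, the classes already differed, with SUZ12 at 98.5%, 93.2% and 73.6%. Length and RING1B score went together in the choice of loci, and their parts were not tested.

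**Figure D3:**
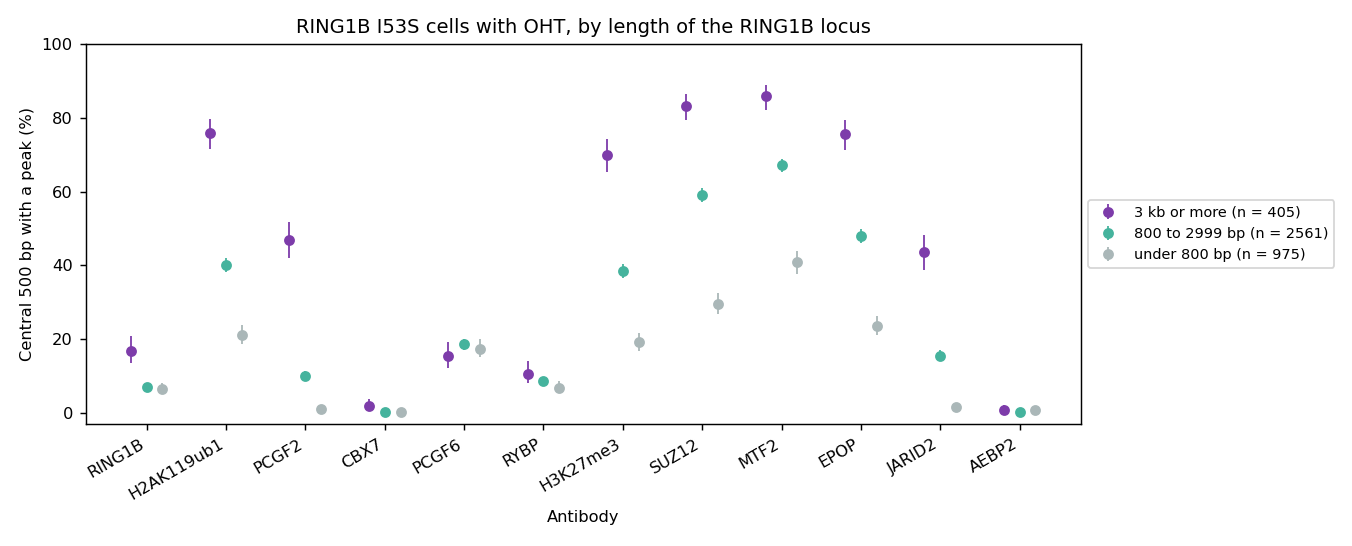
Share of loci with a peak over the central 500 bp (y axis, percent) in RING1B I53S +OHT for 12 antibodies (x axis), by length of the RING1B locus; points are shares (for MTF2 and JARID2 the mean of 2 libraries) and bars 95% intervals over loci. SUZ12 falls from 83.2% in broad loci to 29.5% in those under 800 bp, whereas PCGF6 lies between 15.3% and 18.6% in all 3 classes.

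Within the broad loci, longer ones more often had a peak, but the share of a locus that was covered did not follow length in this way. For the 215 loci of 3 to 4 kb, the 127 of 4 to 6 kb and the 63 of at least 6 kb, PCGF2 peaks in RING1B I53S were present at 49.3%, 66.9% and 96.8%. JARID2 was at 50.2%, 61.8% and 86.5% (means of 2 libraries), and SUZ12 at 88.8%, 96.1% and 100%. RING1B I53S peaks were at 18.6%, 27.6% and 42.9%. Here no central window was used, so a longer locus had more bases in which a peak could fall. The median share covered was 64.8%, 58.1% and 73.8% for SUZ12 and 62.2%, 55.2% and 71.9% for H2AK119ub1, lowest in the middle group for both. The median RING1B scores of the 3 groups were 91.8, 99.6 and 141.

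A few broad loci had no H3K27me3 peak even with active RING1B. In RING1B WT +OHT, 8 of the 405 had no H3K27me3 peak: Hjurp, Fasn, Mroh2a, Ccm2, Tbrg4, Traf4, 2610507B11Rik and a locus on chromosome 9 without a gene. Their RING1B scores had a median of 16.4 (10.5 to 61.9) against 102 (19.3 to 334) at the others. Their ratio of observed to expected CpG was 0.235 (0.192 to 0.277) against 0.643 (0.321 to 0.974), so the 2 sets did not overlap in CpG. The Fasn window above has a ratio of 0.181, against 1.14 in the Ebf3 window. Of these 8 loci, 7 had a RING1B peak in Parental +OHT, where RING1B was deleted. In Parental cells RING1B peaks covered 70.4% of the Hjurp locus without and 100% with OHT. The values were 35.1% and 62.6% at Fasn, 16.9% and 40.8% at Mroh2a, 19.1% and 49.8% at Ccm2 and 0% and 68.2% at Tbrg4. Traf4 changed little, and the chromosome 9 locus went from 90.0% to 83.3%. Only that last locus had PCGF2 or PCGF6 peaks in RING1B WT +OHT. What the RING1B peaks of these loci reflect was not tested. In all, 16 broad loci had such a peak, 12 of them on chromosome 11. Otx1, Wnt3a and Socs3 on that chromosome and Zic2 on chromosome 14 were among those that carried H3K27me3. Without these 16 loci, RING1B I53S peaks were at 89 of 389 broad loci (22.9%).

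**Figure D4:**
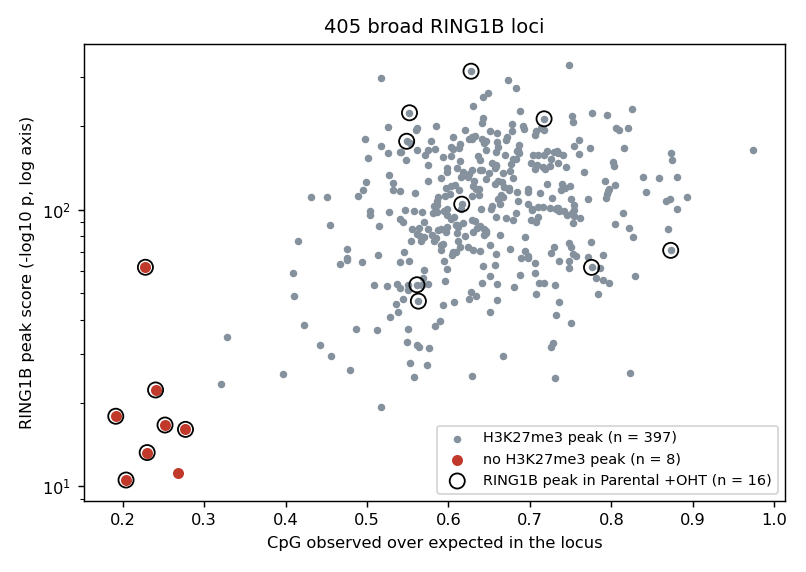
RING1B peak score in RING1B WT +OHT (y axis, −log10 p, log axis) against the ratio of observed to expected CpG (x axis) for the 405 broad loci. The 8 loci without an H3K27me3 peak (red) lie at ratios of 0.192 to 0.277 and the other 397 (grey) at 0.321 or more; circles mark the 16 loci with a RING1B peak in Parental +OHT.

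Across all broad loci CpG content was not higher than in the rest. The median ratio of observed to expected CpG was 0.642 in broad loci, 0.677 in those of 800 to 2999 bp and 0.691 in those under 800 bp, and the medians of GC content were 58.0%, 61.3% and 63.3%. Over the 405 loci Spearman's rho of length with GC was −0.27, and with the CpG ratio −0.10, as a description across loci of 1 list. Short sequences that factors of variant PRC1 read were looked for on both strands in the central 500 bp. The E-box CACGTG, bound by MGA and MAX of the PCGF6 complex, was in 6.91% of the broad centres and 10.7% of all centres. TTCCCGC, a core of E2F sites, was in 10.9% and 13.7%. Of the other letters searched, CGCG was in 77.3% and 82.2% and CAGCACC in 12.3% and 17.2%. These matches describe letters, not binding.

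Most tested genes of the broad loci had little RNA without OHT and rose when RING1B was deleted or inactive. Of the 582 gene names, 354 passed the filter on low counts over the 12 libraries, 48 had no count in any library, and 14 passed with no count in the vehicle libraries, so that those could only be higher. In Parental cells 257 of the 354 rose with OHT (72.6%) and 2 fell, where the shares over all 18154 genes tested were 15.1% and 1.83%. The thresholds of a call were 1.5 for the absolute log2 fold change and 0.05 for the FDR of edgeR. In RING1B I53S cells 243 rose (68.6%, all genes 12.8%) and 0 fell (all genes 1.04%). In RING1B WT cells 28 rose (7.91%, all genes 1.34%) and 0 fell (all genes 0.0386%). DESeq2 also called 0 as lower in both, and 10 and 9 genes were lower at an unadjusted edgeR p under 0.05. Median log2 fold changes were 3.35, 2.99 and 1.03 in Parental, RING1B I53S and RING1B WT cells, where that over all genes was at most 0.03. With genes that had no count in their vehicle group set at their lower bound, the first 2 medians were 3.20 and 2.86. The genes that passed the filter are not all members, and genes that passed through the OHT libraries alone had to be higher. Of the genes called higher, 57 in Parental and 38 in RING1B I53S cells had no count in their own vehicle group. Of the genes called in Parental and in RING1B I53S cells, 230 were shared, 89.5% of the former and 94.7% of the latter. Nothing in the sources states that the 2 libraries of a group came from separate cultures, so p-values measure the spread between libraries, which may be technical. In bulk RNA, more cells that express a gene and more RNA per cell cannot be told apart.

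RING1B WT cells were the least certain of these results. The 28 calls became 4 without RING1B WT +OHT replicate 2, 1 without RING1B WT −OHT replicate 2, 19 without one and 36 without the other of the remaining RING1B WT libraries. The calls of Parental and RING1B I53S cells did not hang on 1 library in this way.

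The genes that rose included many transcription factors of development, which are counted here by lists written with earlier results of these data known. The counts stand beside 72.6%, 68.6% and 7.91% of all tested genes of broad loci that rose in the 3 lines, and several short lists lie near these shares. Of the Hox genes, which give position along the body axis, 16 at broad loci were tested and all 16 rose in Parental cells, 15 in RING1B I53S and 4 in RING1B WT, at a median of 5.56 on the log2 scale in Parental cells. Of 49 other homeobox genes 41, 41 and 7 rose. Of 10 forkhead genes 10, 9 and 1 rose, of 6 Pax genes 5, 5 and 0, and of 8 Wnt ligands and inhibitors 7, 7 and 2. Gata factors (3 genes) gave 3, 3 and 1, bHLH factors (5 genes) 4, 3 and 1, and Sox factors outside pluripotency (3 genes) 2, 2 and 0. No pluripotency gene and no fibroblast marker of the lists lay at a broad locus.

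Hoxb13, the most posterior Hoxb gene, rose from 0.652 and 2.23 CPM to 34.8 and 33.5 in Parental cells, and with OHT it was at 21.1 ± 5.46 CPM (SD, n = 2) in RING1B I53S and at 4.63 and 5.98 in RING1B WT cells. Its log2 fold changes were 4.67 ± 0.44 (SE), 4.43 ± 0.45 and 3.41 ± 0.56, with edgeR adjusted p of 2.5e-07, 1.1e-06 and 0.003. All +OHT libraries were above all −OHT libraries, so this gene also rose with RING1B WT. Hoxa10 had no counts in Parental −OHT and 340 with OHT, at least 120-fold higher. Foxf1, a forkhead factor of the gut mesenchyme, had 0 and 177 counts (at least 62.5-fold), Lhx1 0 and 172 (at least 60.7-fold) and Six3, a factor of the forebrain and eye, 0 and 91 (at least 32.1-fold). Pitx1, a factor of the hindlimb, had 2 and 414 counts, a ratio of 219 with a counting interval of 60.3 to 1815. Otx1, a factor of the forebrain at the locus of 12440 bp, rose by a log2 fold change of 5.26 in Parental, 3.64 in RING1B I53S and 2.23 in RING1B WT cells. Wnt3, the ligand of primitive streak formation, rose by 4.47, 3.82 and 2.89.

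Markers of the other lineages that ESC cultures can give moved as well. Of the primitive endoderm markers at broad loci all 3 rose in Parental and RING1B I53S cells and none in RING1B WT. Gata6 had 0 counts in Parental −OHT and 116 with OHT (at least 40.9-fold), and Pdgfra rose by 4.14 (log2 fold change) in Parental and 3.17 in RING1B I53S cells. Of 4 trophoblast markers 3, 3 and 2 rose, among them Gata3 and Hand1. The exception was Eomes, with 7.73 ± 2.55 CPM (SD, n = 2) without and 12.6 ± 0.821 CPM with OHT in Parental cells (log2 fold change 0.68, edgeR adjusted p 0.11). Over the whole lists, broad or not, the summed CPM of trophoblast markers went from 218 to 266 without OHT to 768 to 791 with OHT in Parental cells, that of primitive endoderm markers from 546 to 703 to 1183 to 1201, and that of pluripotency genes from 8105 to 9309 down to 4634 to 4651. In RING1B I53S cells the pluripotency sum with OHT was 4769 in both libraries, and in RING1B WT 7400 and 7488. The part of these cell states in the results was not tested.

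The gene with the lowest adjusted p was Gata3, a zinc-finger factor of trophoblast and T cells with broad loci at chr2:9876457-9879773 and chr2:9880872-9885057. It had 0.489 and 0.494 CPM in Parental −OHT and 52.9 and 51.8 in Parental +OHT. In RING1B I53S it went from 0.927 and 0.672 to 35.6 and 36.8, and in RING1B WT from 1.60 and 1.21 to 4.93 and 7.60. The RING1B WT libraries with OHT stood above all −OHT libraries and far below the other +OHT libraries. The log2 fold changes were 6.70 ± 0.36, 5.46 ± 0.33 and 2.13 ± 0.34 in Parental, RING1B I53S and RING1B WT cells, with edgeR adjusted p of 7e-10, 6.9e-09 and 0.0028. Ccnd2, which encodes the cell cycle regulator cyclin D2, has loci at chr6:127148923-127152483 and chr6:127153282-127156391. It rose from 2.44 and 4.33 CPM to 195 and 166 in Parental cells, from 2.39 and 3.07 to 86.3 and 86.5 in RING1B I53S, and from 2.57 and 5.27 to 13.4 and 23.7 in RING1B WT. Its log2 fold changes were 5.78 ± 0.34, 4.99 ± 0.33 and 2.23 ± 0.33. The locus around the Ccnd2 window above has 57.5% GC and a ratio of observed to expected CpG of 0.540.

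Hand1, a bHLH factor of trophoblast and heart at chr11:57826868-57834265, went from 0.244 and 0.247 to 20.9 and 20.6 CPM in Parental cells. It reached 12.1 and 15.2 CPM in RING1B I53S and 2.92 and 3.99 in RING1B WT. Pax9, a paired-box factor of the pharyngeal pouches at chr12:56691084-56698820, had 1 count in Parental −OHT and 253 with OHT, a ratio of 268 with a counting interval of 47.6 to 10619. It was at 11.8 and 9.64 CPM in RING1B I53S +OHT and at 1.51 and 1.49 in RING1B WT +OHT, where its change was not called (edgeR adjusted p 0.31). Col2a1, the collagen of cartilage, went from 9.45 and 5.56 to 38.3 and 49.2 CPM in Parental cells, from 5.18 and 5.85 to 34.4 and 44.8 in RING1B I53S and from 5.78 and 6.03 to 9.56 and 9.34 in RING1B WT. Sox9, which drives cartilage genes, went from 0.326 and 0.124 to 19.5 and 22.3 CPM in Parental cells, and its 2 RING1B WT +OHT libraries had 0.403 and 1.25. For both, RING1B WT was not called.

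**Figure D5:**
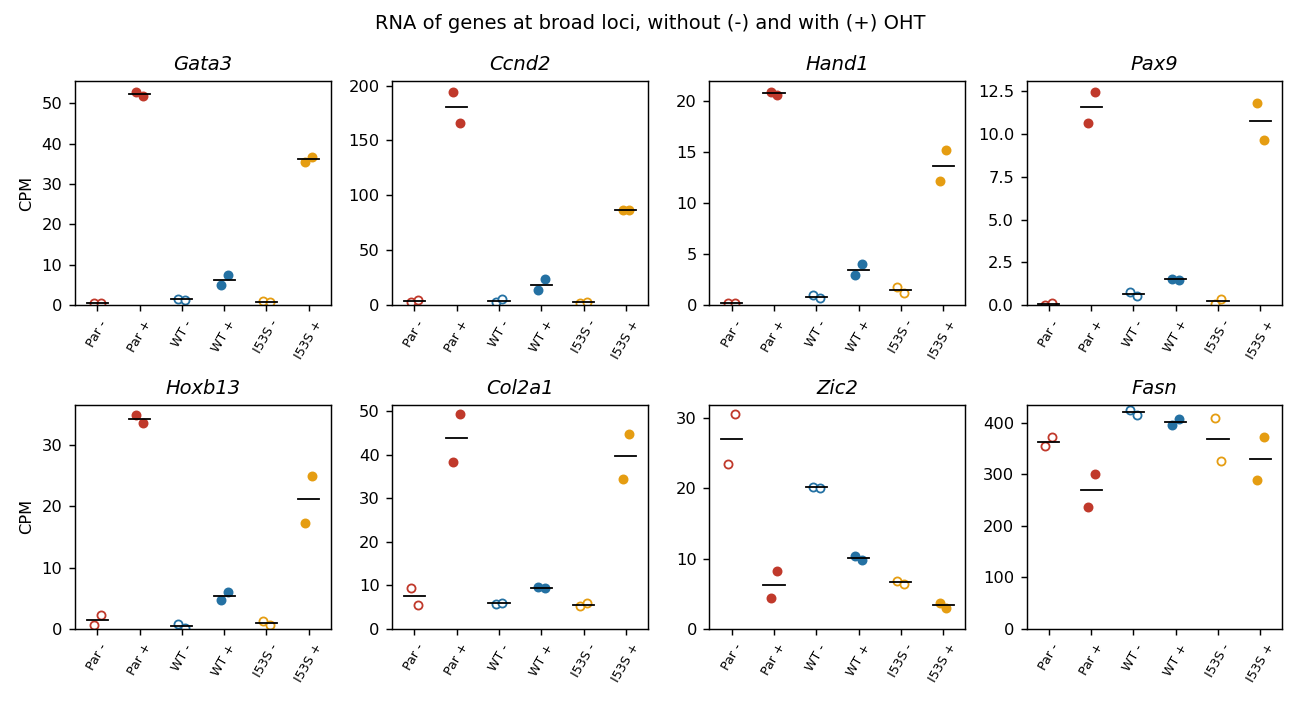
CPM (y axis, linear) of 8 genes of broad loci in each RNA-seq library of Parental (red), RING1B WT (blue) and RING1B I53S (orange) cells without (open) and with (filled) OHT; bars are means of 2 libraries. Gata3, Ccnd2, Hand1, Pax9, Hoxb13 and Col2a1 are high with OHT in Parental and RING1B I53S cells, Zic2 falls in Parental cells, and Fasn shows no called change.

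Genes of PRC1 subunits at broad loci rose too. Cbx8 went from 1.47 and 0.865 to 26.2 and 31.1 CPM in Parental cells (log2 fold change 4.55) and rose by 2.57 in RING1B I53S. Bcor, a subunit of the PCGF1 complex, started far from silent at 42.6 and 50.8 CPM and reached 124 and 145 (log2 fold change 1.53), and with 1.21 in RING1B I53S it stayed under the threshold there.

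Only 2 genes of broad loci fell, both at 1 locus. Zic2, a zinc-finger factor of the early neural plate, went from 23.5 and 30.5 to 4.44 and 8.19 CPM in the Parental line, a log2 fold change of −2.10 ± 0.29 and an edgeR adjusted p of 1.9e-05. In RING1B I53S and RING1B WT the value was −0.99 in each, not called. The RING1B I53S line had less Zic2 before OHT, with 6.88 and 6.43 CPM. Its neighbour 2610035F20Rik had −2.46 ± 0.57 in Parental cells (edgeR adjusted p 0.0022), and reads of overlapping genes could not be separated, since counting ignored the strand. Zic2 was also among the 16 loci with a RING1B peak in Parental +OHT.

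The tested genes of the loci without H3K27me3 were called in none of the 3 lines, and their difference from the other genes was not tested. Fasn, the fatty acid synthase, had 355 and 373 CPM in Parental −OHT and 237 and 301 with OHT (log2 fold change −0.44, edgeR adjusted p 0.07). It lay between 288 and 426 CPM in the RING1B I53S and RING1B WT libraries. Hjurp, the chaperone of centromeric histone, Ccm2, Mroh2a, Traf4, Tbrg4 and 2610507B11Rik were the others. Of all 124 genes of broad loci at 1 CPM or more in Parental −OHT, 54 rose there. Neurod2, a neuronal bHLH factor with the highest RING1B score of the broad loci (334), where RING1B peaks covered 83.5% in RING1B I53S, had at most 3 counts in each of the 6 groups and was not tested. Genes of the widest loci rose by unequal amounts. Ebf3 rose by a log2 fold change of 3.48 in Parental cells. Tbx2 had 2 counts without and 31 with OHT, a ratio of 16.4 (4.17 to 141). Tfap2a rose by 1.86 in Parental cells and was not called in RING1B I53S (0.74, edgeR adjusted p 0.25).

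The OHT effects were then compared between lines in the same fit. For RING1B WT minus Parental, 35 genes of broad loci had a lower effect (9.89%, all genes 1.1%) and none a higher one (all genes 0.435%, 2 at an unadjusted edgeR p under 0.05, DESeq2 0), with a median of −1.87 on the log2 scale. Gata3 (−4.57 ± 0.54, edgeR adjusted p 0.00011), Ccnd2 (−3.54 ± 0.47, 0.00031) and Pax9 (−6.36 ± 1.05, 0.0024, on 1 count in Parental −OHT) had the lowest adjusted p, followed by Hand1 (−4.27 ± 0.71, 0.0025). For RING1B I53S minus RING1B WT, 10 genes had a higher effect (all genes 0.209%) and none a lower one (all genes 0.138%, 0 at an unadjusted edgeR p under 0.05, DESeq2 0). They were Ccnd2, Col2a1, Fgfr2, Gata3, Gbx2, Pax9, Podxl, Prox1, Slc30a3 and Sox9. For RING1B I53S minus Parental, edgeR called 0 of 354 (all genes 0), DESeq2 called 0, and 31 had an unadjusted p under 0.05, of which 28 were lower, with a median of −0.36. That no gene was called does not show that the effects were equal. The 35 calls became 9 and 17 without replicate 1 of RING1B WT +OHT and of RING1B WT −OHT, 19 and 14 without replicates 1 and 2 of Parental +OHT, and 23 and 20 without those of Parental −OHT. The 10 calls became 1 without replicate 1 of RING1B WT +OHT or of RING1B WT −OHT, and 5 and 6 without replicate 1 and 2 of RING1B I53S −OHT.

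Loss of EED, the PRC2 subunit that reads H3K27me3, gave no called change at broad loci in the main fit. Calls appeared with a block for the replicate number or when 1 library was left out. Of 361 genes of broad loci tested in Eed fl/fl cells, edgeR called 0 higher (all genes 0.00795%) and 0 lower (all genes 0), DESeq2 called 0, and 19 had an unadjusted p under 0.05, with a median log2 fold change of 0.27. Without Eed −OHT replicate 2 genes were called as well, so the result depended on that library. Its group then held 1 library and had no spread of its own, so these calls are not read further. A fit that blocked on replicate gave 2 higher calls (all genes in either direction 0.64%), where same-numbered libraries deviated together with r = 0.50. They were Cyp26a1, which degrades retinoic acid, with 0.370 and 1.195 CPM without and 1.24 and 3.80 with OHT, and Nkx1-2, a homeobox factor, with 0.494 and 0.956 CPM without and 1.87 and 3.44 with OHT. In both genes the libraries with OHT lay above those without, by a narrow margin in Cyp26a1. The study lists 2 clones of this line, and the labels do not say which library came from which clone. These libraries had a wider spread (biological coefficient of variation 0.251 against 0.181), and the effects were not tested against those of the Parental line. The deleted gene Eed was itself not called (log2 fold change −1.95, edgeR adjusted p 0.0766). That no gene was called therefore does not show that EED loss had no effect.

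In Parental and RING1B I53S cells a larger share of genes rose at longer loci. Among genes that passed the filter, those with a low starting level were also called higher more often in Parental cells. In Parental cells 69.0% of 158 coding genes at loci of 3 to 4 kb rose, 76.2% of 101 at 4 to 6 kb and 84.6% of 52 at 6 kb or more, with median log2 fold changes of 2.94, 3.45 and 4.75. The shares were 65.8%, 71.3% and 84.6% in RING1B I53S and 9.49%, 8.91% and 7.69% in RING1B WT cells, so the order was not the same there. Genes of the longest loci also started lower, with median levels of 0.625, 0.656 and 0.164 CPM in Parental −OHT, and the parts of length and starting level were not tested. Over these 311 genes Spearman's rho of locus length with log2 fold change was 0.26 in Parental, 0.22 in RING1B I53S and 0.12 in RING1B WT cells, as a description across genes, which share libraries. Genes whose promoters were only at loci of 800 to 2999 bp rose at 54.5% in Parental and 50.7% in RING1B I53S cells, and those only at loci under 800 bp at 35.4% and 29.4%. Of 230 genes of broad loci under 1 CPM in Parental −OHT (not scaled to gene length), 203 rose (88.3%, all such genes 47.9%). Of 124 at 1 CPM or more, 54 rose (43.5%, all such genes 7.74%). Genes under 1 CPM there passed the filter largely through other libraries, which favours a rise with OHT. These shares therefore do not measure an effect of the starting level. By locus, 240 of the 316 broad loci with a tested coding gene (75.9%) had at least one that rose in Parental cells.

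Whether genes rose more or less often where a locus kept a Polycomb peak depended on the antibody, and the differences were not tested. In RING1B I53S +OHT, 74.3% of 272 coding genes rose where the locus kept an H3K27me3 peak and 46.2% of 39 where it did not. For SUZ12 these shares were 72.6% of 285 and 50.0% of 26, and for PCGF2 75.6% and 62.7%. In Parental cells the same genes, split by the same RING1B I53S peaks, rose at 77.2% and 51.3%, 75.4% and 57.7%, and 79.8% and 64.4%. For RING1B I53S peaks the order was the other way, with 61.8% at loci with and 73.6% at loci without a peak, while in Parental cells the 2 sets rose at 73.7% and 74.0%. H2AK119ub1 gave 69.6% with and 78.9% without a peak. On chromosome 11, where 17.6% of the broad loci had a RING1B peak in Parental +OHT against 1.19% elsewhere, 68.3% of 63 genes of broad loci rose in Parental cells, against 73.5% of 291 elsewhere.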

How the data were processed

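ChIP-seq peak lists of 70 libraries for 12 antibodies and RNA-seq counts of 16 libraries from mouse ESCs were used, of which 1 RYBP library has no group. For each library the authors called peaks with MACS2 2.1.1 from Bowtie 1.2.2 alignments (mm10, unique, duplicates removed), and they deposited a score per peak, the −log10 of its p-value. Their scaling to a dm6 spike-in is not carried by the lists, and 13 input samples hold no peak list used here. The RNA values are raw counts per gene name, which the authors made with STAR 2.7, samblaster and featureCounts, without strand, on GENCODE M21 and deposited as such. A further table of the Eed fl/fl libraries, labelled normalized, holds the same whole counts and was not used. The deposited comparison tables (log2 fold changes and adjusted p-values of the authors) and the table of normalized counts of the other lines were not used.

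Peaks were compared in Python 3.11.15 (numpy 2.4.6, pandas 2.3.3, scipy 1.17.1, pysam 0.24.0), and figures were drawn with matplotlib 3.10.9. A peak that overlapped a locus by at least 1 bp occupied it, and a gene belonged to a locus when its promoter, 2.5 kb to either side of any start site, overlapped it by at least 1 bp. Counts were fitted in R 4.3.3 with the quasi-likelihood test of edgeR 4.0.16, with TMM scaling and filterByExpr, over all genes: 18154 of 55341 names in 12 libraries (6 groups of 2), and 25170 in the 4 Eed fl/fl libraries, fitted apart. p-values were adjusted by Benjamini-Hochberg over all genes tested, and calls needed an FDR under 0.05 and a log2 fold change of 1.5 or more in either direction. The biological coefficients of variation, 0.181 and 0.251, set the precision with 2 replicates, at a median depth of 9991785 and 8382843 counts. Folds against 0 counts are lower bounds that set 3 counts as the group's floor, ratios against 1 to 3 counts have an exact 95% interval, and both cover counting error only. CPM are counts scaled to the library total. Two-sided exact permutation tests were used for the shares of MTF2 and JARID2 loci. The steps were tested on simulated data.

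Loci, members and gene lists were chosen with earlier results of these data known. The genes named are the 6 most significant that rose and the 4 that fell per line, the 5 most significant per difference between lines, up to 4 of each gene list by adjusted p in Parental cells, those with the highest CPM without OHT, and the genes of the widest loci, of those nearest to 3000 bp, of those most covered by RING1B in RING1B I53S and of those without H3K27me3. Gbx2, Podxl, Prox1, Neurod2 and the genes of the 16 loci with RING1B in Parental +OHT were named after their values were seen, since their sets were small. A few loci and genes that fall under these rules are not reported here. Alternatives were DESeq2 1.42.0, RLE scaling, other filters, each library left out, a block for the replicate number, coverage of at least 50% of a locus, a score of at least 20 and, added after seeing the data, loci without a leftover RING1B peak and without chromosome 11.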

Additional observations from a re-analysis of the deposited data

Results flagged for a closer look

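For 10 differences in the OHT effect between lines at genes of broad loci, the test of the difference itself passed the threshold, so the effects were unequal in the lines compared. Values are differences of log2 fold changes from edgeR with Benjamini-Hochberg adjusted p over all genes tested. For RING1B WT minus Parental they were −4.57 for Gata3, −3.54 for Ccnd2, −6.36 for Pax9, −4.27 for Hand1 and −2.80 for Efna5, an ephrin ligand of axon guidance. In Efna5 the RING1B WT line was already higher without OHT, with 5.56 and 7.79 CPM against 1.39 and 2.47 CPM in the Parental line. The Pax9 value rests on 1 count in Parental −OHT, so its size depends on the prior count of the fit.

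For RING1B I53S minus RING1B WT they were 3.33 for Gata3, 2.75 for Ccnd2, 3.15 for Fgfr2, 1.88 for Slc30a3 and 2.17 for Col2a1. Fgfr2, a receptor of fibroblast growth factors, went from 1.39 and 0.767 to 15.3 and 10.6 CPM in RING1B I53S and from 3.21 and 1.97 to 3.02 and 3.86 CPM in RING1B WT. Without RING1B WT +OHT replicate 1 the edgeR adjusted p became 0.0788 for Ccnd2, 0.0932 for Fgfr2, 0.121 for Slc30a3 and 0.0932 for Col2a1. Without RING1B WT −OHT replicate 1 it became 0.061 for Gata3, Slc30a3 and Col2a1 and 0.0963 for Fgfr2, and without replicate 2 of that group 0.0923 for Ccnd2. Without RING1B I53S −OHT replicate 1 it was 0.0594 for Slc30a3 and 0.0528 for Col2a1, without replicate 2 of that group 0.0704 for Fgfr2, and without RING1B WT +OHT replicate 2 it was 0.0576 for Col2a1. In these fits the differences were 3.10 for Gata3, 2.11 and 2.38 for Ccnd2, 2.74 to 2.96 for Fgfr2, 1.68 to 1.88 for Slc30a3 and 2.07 to 2.19 for Col2a1.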

How the results depend on the processing

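No difference or count of called genes reversed under the alternatives run, and the sizes of the ChIP differences moved with what counts as occupied. Requiring 50% of a locus under peaks, the differences between RING1B I53S and RING1B WT with OHT became −31.9 points for H2AK119ub1, −73.6 for PCGF2, −87.2 for PCGF6, −5.43 for RYBP, −32.3 for H3K27me3, −30.1 for SUZ12, −36.8 for EPOP and −75.6 for AEBP2. In Parental cells, with against without OHT, they became −97.3 for RING1B, −97.3 for CBX7, −32.1 for PCGF6, −14.8 for H3K27me3, −8.40 for SUZ12, −5.68 for MTF2, −39.5 for EPOP, −61.2 for JARID2 and −71.9 for AEBP2. With only peaks of a score of at least 20, RING1B I53S minus RING1B WT was −40.0 for H2AK119ub1, −65.4 for PCGF2, −97.0 for CBX7, −84.9 for PCGF6, −2.22 for RYBP, −31.1 for H3K27me3, −22.7 for SUZ12, −40.2 for EPOP and −59.5 for AEBP2. In Parental cells it was −97.5 for RING1B, −12.3 for H2AK119ub1, −97.5 for CBX7, −22.2 for PCGF6, −11.9 for H3K27me3, −7.90 for SUZ12, −5.19 for MTF2, −43.7 for EPOP, −56.8 for JARID2 and −51.9 for AEBP2. The following were added after seeing the data. At 50% coverage, RING1B I53S MTF2 KO minus RING1B WT MTF2 KO was −45.2 for H3K27me3 and −92.1 for SUZ12, Parental MTF2 KO with against without OHT −38.3 and −83.5, RING1B WT MTF2 KO minus RING1B WT −51.1 and −4.94, and Parental MTF2 KO minus Parental −58.8 and −6.42. At a score of at least 20, the first was −19.3 for H3K27me3, the second −20.5 and −79.8, the third −75.6 and −7.90 and the fourth −74.1 and −12.3. Without the 16 loci with RING1B in Parental +OHT, RING1B I53S minus RING1B WT was −96.4 for CBX7 and −92.5 for AEBP2. Without chromosome 11 it was −96.1 for CBX7, and Parental values were −98.8 for RING1B, −98.2 for PCGF2 and −92.9 for CBX7, with −92.9 (RING1B I53S MTF2 KO) and −74.5 (Parental MTF2 KO) for SUZ12. Leaving out 1 library each gave −7.90 to −0.741 for MTF2 and −54.3 to −23.2 for JARID2. A limit of 5000 bp left 108 loci.

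For RNA, at least 10 counts in every library left 34 genes called in Parental, 27 in RING1B I53S and 1 in RING1B WT cells, 14 for RING1B WT minus Parental and 5 for RING1B I53S minus RING1B WT, since it removes genes silent without OHT. With no filter RING1B WT had 54, RING1B WT minus Parental 61 and RING1B I53S minus RING1B WT 28. A fit of only the groups compared called 17 in RING1B WT, and DESeq2 16 for RING1B I53S minus RING1B WT. Leaving out 1 library each gave 231 to 239 in Parental, 192 to 232 in RING1B I53S, 1 to 36 in RING1B WT, 9 to 29 for RING1B WT minus Parental, 1 to 9 for RING1B I53S minus RING1B WT, 0 to 0 for RING1B I53S minus Parental and 0 to 14 in Eed fl/fl. The replicate numbers were not taken to pair the samples, since no source says what they share. Same-numbered libraries deviated together with r of 0.338 to 0.425 among the 3 −OHT groups, −0.009 to 0.425 over all 15 pairs of groups and 0.50 in Eed fl/fl. A replicate block called 265 in Parental, 246 in RING1B I53S, 30 in RING1B WT, 44 for RING1B WT minus Parental, 0 for RING1B I53S minus Parental, 13 for RING1B I53S minus RING1B WT and 2 in Eed fl/fl. Ostm1, with no called change, lay between −0.050 (without Parental −OHT replicate 1) and 0.21 (without replicate 2). The cause of these moves was not tested otherwise. Over the genes named singly, 829 alternatives kept the direction and call, 38 lost the call, 32 moved a value and 1 reversed it. Peak lists without reads limit the ChIP results to presence and extent, mostly from 1 library per condition.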

Other observations

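One RYBP library, whose descriptions do not give its group, listed 61 peaks. They overlapped 5 of the 405 broad loci, which is 1.23% (95% Wilson interval 0.528 to 2.86%), and 0.584% of all 3941 RING1B loci. RYBP libraries with a group overlapped 56.0% of the broad loci in Parental −OHT, 36.8% in RING1B WT +OHT and 21.5% in RING1B I53S +OHT.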
